A study of Homo sapiens and Mus musculus with 19 samples.

Results

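Cyclin B, its kinase partner and the other core genes of mitosis were followed in chromatin-associated RNA (caRNA), the RNA that stays with the chromatin pellet after the cytoplasm and nucleoplasm are removed. The set held 10 genes, chosen by name: the cyclins CCNB1 and CCNB2, the kinases CDK1, PLK1, AURKA, AURKB and BUB1, the anaphase activator CDC20, and TOP2A and MKI67, which act on mitotic chromosomes. Gene symbols were found by matching Ensembl gene identifiers to GENCODE, and all 10 were present among 58721 human genes and, under the same symbols, among 54446 mouse genes. All 10 passed the filter on low counts in both species. The mouse libraries came from embryonic stem cells (mESC) kept in serum with LIF and a pair of differentiation inhibitors and transfected with a control siRNA (siControl, 3 libraries) or an siRNA against Nsun2 (siNsun2, 3 libraries), the gene of an RNA m5C methyltransferase. The human libraries came from K562, a leukaemia line that was TET2 wild type (WT) or TET2 knockout (KO) and carried a lentiviral shRNA, either non-targeting (shControl) or against MBD6 (shMBD6). Each of the 4 combinations had 3 libraries. The enzyme TET2 oxidises methylcytosine, and MBD6 is a protein of the methyl-CpG-binding-domain family. All K562 groups were grown in puromycin, MBD6 was targeted by 1 shRNA, and the KO line had been made before the study, so that WT and KO may differ in more than TET2. How many clones the KO line came from is not given in the sources used here.

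Entry into mitosis is driven by CDK1, a kinase that is active only when bound to a cyclin. Cyclins B1 and B2 build up in late S phase and G2 and are destroyed at anaphase, when CDC20 directs the anaphase-promoting complex to them. PLK1 and the aurora kinases help to switch CDK1 on, separate the centrosomes and correct the attachment of chromosomes, BUB1 is part of the spindle checkpoint, TOP2A untangles sister chromatids, and MKI67 encodes Ki-67, the coat of mitotic chromosomes that is used as a marker of dividing cells. These genes are transcribed mainly in G2, and their promoters are known for CCAAT boxes, bound by the NF-Y complex, and for the cell cycle genes homology region (CHR), bound by the LIN54 subunit shared by the DREAM repressor and the MYBL2 activator complex.

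The promoters of 9 of the 10 human genes were in the RefSeq table (GRCh38.p14, 250 bases before to 50 after each start) and were searched on both strands for CCAAT and for a CHR, spelled TTTGAA or TTCGAA. Every one of the 9 held a CCAAT, compared with 39.7% of 27305 RefSeq genes, and 7 (77.8%) held a CHR, compared with 19.5%. Both motifs stood together in 7 of the 9 and in 7.85% of all genes. CCNB1 and AURKB had no such CHR in the window. The CHR lay at -29 to -24 from the start in CCNB2 and in PLK1 and at -65 to -60 in CDC20, whereas in BUB1 it was TTCGAA at 2 to 7 after the start. MKI67 held a CHR at -47 to -42 and another at -29 to -24 whose last base was shared with a CCAAT on the opposite strand at -24 to -20. Upstream bases are shown for 6 genes, chosen because CCNB1, TOP2A and MKI67 shared 1 pattern over the K562 groups, CCNB2 had the largest change with the labels as given, and BUB1 and CDC20 stood apart. They run from 120 bases before the start to the last base ahead of any annotated exon of the gene, 5′ to 3′ on the gene's strand, and capitals mark each motif on either strand, so that a CCAAT on the opposite strand reads ATTGG. The stretches are CCNB1 chr5:69167030-69167134, plus strand, CCNB2 chr15:59105026-59105125, plus strand, BUB1 chr2:110678064-110678183, minus strand, CDC20 chr1:43358861-43358980, plus strand, TOP2A chr17:40417897-40418016, minus strand, and MKI67 chr10:128126424-128126543, minus strand.
CCNB1: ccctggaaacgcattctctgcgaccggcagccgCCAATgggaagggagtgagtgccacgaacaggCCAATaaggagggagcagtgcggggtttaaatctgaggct
CCNB2: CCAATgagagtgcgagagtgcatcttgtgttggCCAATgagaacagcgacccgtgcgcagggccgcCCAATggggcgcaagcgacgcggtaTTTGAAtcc
BUB1: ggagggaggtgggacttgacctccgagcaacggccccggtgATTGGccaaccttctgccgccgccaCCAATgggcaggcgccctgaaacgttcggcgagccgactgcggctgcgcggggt
CDC20: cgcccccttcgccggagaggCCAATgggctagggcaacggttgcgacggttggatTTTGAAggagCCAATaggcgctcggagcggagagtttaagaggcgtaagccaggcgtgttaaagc
TOP2A: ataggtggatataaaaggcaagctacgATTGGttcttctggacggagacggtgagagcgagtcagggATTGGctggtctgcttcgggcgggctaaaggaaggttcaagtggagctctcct
MKI67: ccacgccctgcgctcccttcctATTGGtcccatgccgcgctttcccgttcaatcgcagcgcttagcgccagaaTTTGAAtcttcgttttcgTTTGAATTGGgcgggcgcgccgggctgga
A CCAAT was within 120 bases of the start in each of the 6. These are matches of letters in the reference, and binding was not measured.

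Depth was high throughout, with 58078323 to 66832780 counts in genes per mESC library and 52158403 to 102070223 per K562 library. Read records assigned to no counted feature made up 19.9% ± 0.348 (SD, n = 3) in siControl and 29.4% ± 0.464 in siNsun2 libraries. They made up 13.2% ± 0.104, 15.9% ± 0.230, 15.0% ± 0.0288 and 15.1% ± 0.0530 in WT shControl, WT shMBD6, KO shControl and KO shMBD6. Since the counted feature and the strand option are not given, such records may include reads within genes. Nsun2 stood at 126 to 133 CPM (counts scaled by library size and TMM factor) in siControl and fell to 98.7 to 106 in siNsun2. Its log2 change was -0.34 (edgeR adjusted p = 2.67e-16), where genes expressed like the 10 had a median of -0.19. Tet2, which was not targeted in these cells, changed by -0.42, so the fall of Nsun2 did not stand apart. MBD6 fell in WT, from 38.6 to 43.3 CPM to 25.7 to 30.9 (log2 change -0.57, edgeR adjusted p = 1.83e-07), but in KO it stood at 29.4 to 30.8 CPM in the libraries labelled shControl and 30.6 to 38.3 in those labelled shMBD6 (log2 change 0.19, edgeR adjusted p = 0.0574), which goes against the label. TET2 RNA stood at 118 to 123 CPM in WT shControl, 117 to 125 in WT shMBD6, 127 to 131 in KO shControl and 91.6 to 101 in KO shMBD6, so its level did not mark the knockout, and which part of the gene was edited is not given in the sources used here. Every value below for KO shControl and KO shMBD6 is that of the libraries so labelled. Of 10 stem cell markers 9 were at 1 CPM or more in mESC, Sox2 being below, and their sum was 2075 to 2114 CPM in siControl and 1568 to 1610 in siNsun2, while the sum of 9 fibroblast markers overlapped (38.0 to 40.5 and 37.8 to 39.4 CPM, with Lum and Thy1 below 1). Of 10 K562 markers, 7 or 8 were at 1 CPM or more in each group, with HBE1 and HBG2 below in all 4, and 12 markers of other blood cells summed to 3.52 to 6.74 CPM over all libraries.

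Levels were compared between genes only after division by length. In siControl mESC the order per kb of exons was Mki67 (56.5 ± 0.0837 CPM per kb, SD, n = 3), Top2a (55.4 ± 0.554), Bub1 (38.2 ± 1.16), Ccnb1 (22.1 ± 0.115), Cdk1 (17.4 ± 0.414), Ccnb2 (15.6 ± 0.836), Aurka (13.4 ± 0.415), Plk1 (8.96 ± 0.573), Cdc20 (8.20 ± 0.189) and Aurkb (5.75 ± 0.121). No neighbours in this order overlapped in their range over 3 libraries. In WT shControl K562 the order was TOP2A (31.6 ± 0.899 CPM per kb), CDK1 (26.2 ± 0.64), CCNB1 (21.2 ± 0.516), AURKA (21.0 ± 0.296), BUB1 (20.8 ± 0.53), MKI67 (15.9 ± 0.281), AURKB (12.9 ± 0.865), PLK1 (11.6 ± 0.502), CDC20 (9.88 ± 1.07) and CCNB2 (9.87 ± 0.0857). Here CCNB1, AURKA and BUB1 could not be ordered beyond their spread, nor could AURKB and PLK1, or CDC20 and CCNB2. Per kb of exons the genes that act on chromosomes, TOP2A and MKI67, were the highest in mESC and the regulators CDC20 and AURKB the lowest. In K562 MKI67 stood in the middle of that order. Whether reads were counted over exons or whole genes is not given in the sources used here. Per kb of gene span the cyclin CCNB2 was lowest in both species and MKI67 and TOP2A were highest in both. In siControl mESC Ccnb2 (1.72 CPM per kb of span), Plk1 (1.89) and Aurka (2.37) were then below Aurkb (2.81) and Cdc20 (3.44). The lowest places in mESC, and the place of MKI67 in K562, thus depended on the length used.

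**Figure D1:**
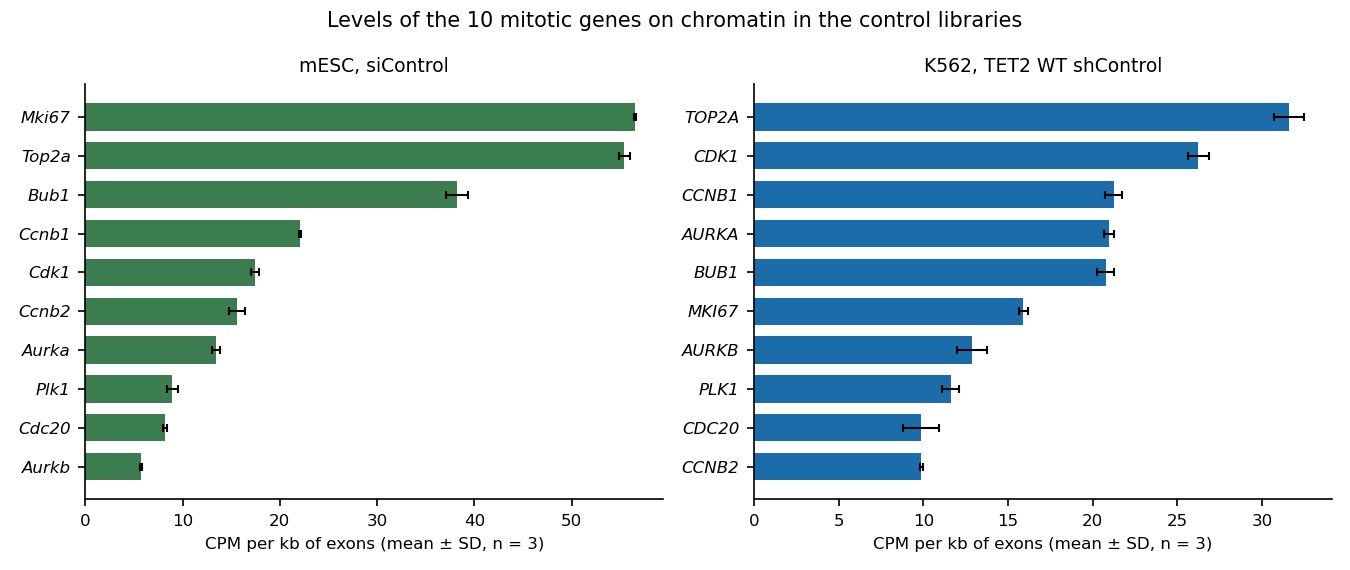
Level of each gene in the control libraries, as CPM per kb of exons on a linear axis that starts at 0 (bars: mean; lines: SD, n = 3 libraries), for siControl mESC on the left and WT shControl K562 on the right. Mki67 and Top2a lead in mESC at 56.5 and 55.4, and TOP2A leads in K562 at 31.6.

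Comparing siNsun2 with siControl asks what less of the methyltransferase does to caRNA. Of the 10 genes, 8 were called lower in siNsun2 and 0 higher at an adjusted p under 0.05, with log2 changes of -0.41 to -0.04 and a median of -0.26. Across all 27603 genes tested, 24.3% were called lower and 25.8% higher, with a median of 0.14. Strongly expressed genes fell as a whole: of 7883 genes within the expression range of the 10, 68.9% were called lower and 11.9% higher, and their median was -0.19. The 8 calls are thus to be read against a majority of like genes that were called lower too. The marker genes of the stem cells fell with them and reads in no counted feature rose, and the part of either in the result was not tested. Fewer cells in G2 or mitosis and less RNA per cell cannot be told apart in these bulk libraries.

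Among the cyclins, Ccnb1 (ENSMUSG00000041431.16, chr13:100778650-100786570, minus strand, mm10) stood at 92.8, 93.1 and 93.7 CPM in the siControl libraries and 72.2, 67.1 and 71.5 in siNsun2, a log2 change of -0.41 (SE 0.04, edgeR adjusted p = 1.25e-17). Ccnb2 (ENSMUSG00000032218.7, chr9:70407692-70421547, minus strand) stood at 22.6, 24.0 and 25.1 and 18.5, 20.9 and 22.2 CPM (-0.22, SE 0.07, adjusted p = 0.0046). The libraries of Ccnb1 were far apart, whereas the highest siNsun2 value of Ccnb2 was just under the lowest siControl value and its call was lost without siNsun2 replicate 1 (-0.15). Cdk1 (ENSMUSG00000019942.13, chr10:69335146-69352938, minus strand), the kinase that both cyclins activate, went from 88.4, 84.9 and 84.8 to 74.1, 68.8 and 70.3 CPM (-0.28, SE 0.04, adjusted p = 3.02e-10). For these 3 genes the groups did not overlap, siNsun2 being the lower.

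The other kinases differed among themselves. Plk1 (ENSMUSG00000030867.7, chr7:122159439-122169873, plus strand), which promotes mitotic entry and centrosome maturation, stood at 21.1, 19.5 and 18.6 CPM in siControl and 16.7, 15.6 and 17.4 in siNsun2 (-0.25, SE 0.07, edgeR adjusted p = 0.00254). Aurka (ENSMUSG00000027496.15, chr2:172356190-172370535, minus strand), the aurora kinase of the centrosome, stood at 35.1, 34.0 and 33.0 and 26.3, 26.5 and 28.2 CPM (-0.33, SE 0.06, adjusted p = 2.64e-07). Aurkb (ENSMUSG00000020897.12, chr11:69045647-69051664, plus strand), the aurora kinase of the centromere, stood at 16.5, 17.1 and 17.2 and 17.1, 16.1 and 16.1 CPM (-0.04, SE 0.07, adjusted p = 0.656). Aurka libraries were well separated, whereas those of Aurkb overlapped and no difference passed the test. Bub1 (ENSMUSG00000027379.13, chr2:127801122-127831865, minus strand), the checkpoint kinase of the kinetochore, shared the largest change of the 10 with Ccnb1, from 163, 164 and 172 to 121, 129 and 126 CPM (-0.41, SE 0.03, adjusted p = 5.93e-22).

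Cdc20 (ENSMUSG00000006398.15, chr4:118432901-118437352, minus strand), the activator of the anaphase-promoting complex, stood at 15.7, 15.1 and 15.2 CPM in siControl and 14.6, 12.9 and 13.9 in siNsun2. Its groups did not overlap but the change (-0.15, SE 0.08, edgeR adjusted p = 0.101) did not pass the test, whereas with DESeq2 it did (-0.24, adjusted p = 0.0174). Top2a (ENSMUSG00000020914.17, chr11:98992943-99024189, minus strand), which overlaps a snoRNA on its own strand, went from 494, 501 and 504 to 388, 385 and 399 CPM (-0.36, SE 0.02, adjusted p = 9.59e-26). Mki67 (ENSMUSG00000031004.8, chr7:135689784-135716361, minus strand), the most abundant of the 10, went from 568, 569 and 568 to 496, 491 and 509 CPM (-0.19, SE 0.02, adjusted p = 6.96e-13). Both were clearly separated between groups, yet the change of Mki67 was about that of the median gene of like expression and turned to 0.02 when the scaling factors rested on strongly expressed genes (mean log2 CPM from 5 up). With that scaling 3 of the 10 were called lower and with total gene counts 5, since the median of all genes was then 0.34 and 0.32 and all calls split into 10993 higher and 2047 lower or 10232 higher and 2595 lower, in place of 7128 and 6718. Bub1, Ccnb1 and Top2a were called lower under every scaling tried.

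**Figure D2:**
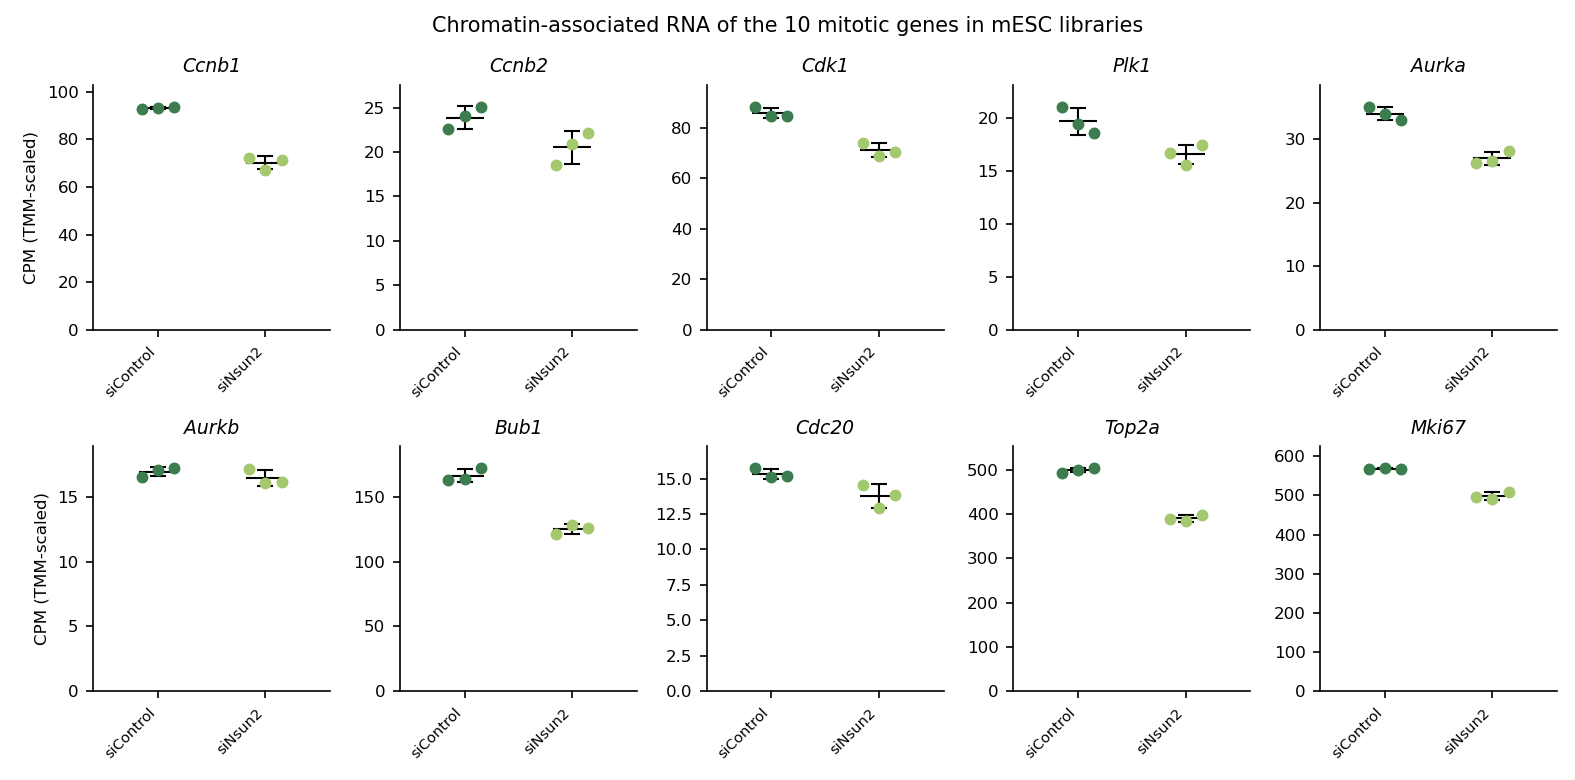
CPM of each of the 10 genes in the mESC libraries, 1 panel a gene, with a linear axis from 0 (points: libraries; bar and whiskers: mean ± SD, n = 3). The groups are separated in 9 panels, from Ccnb1 (92.8 to 93.7 against 67.1 to 72.2) to Cdc20, and overlap in that of Aurkb. The share of all genes separated in this way was not computed. Of 7883 genes in the expression range of the 10, 68.9% were called lower and 11.9% higher.

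In K562 the design asks what TET2 loss and MBD6 knockdown do to caRNA, alone and together. The 10 genes were highest in WT shControl in 7 cases and lowest in WT shMBD6 in 7. The share of all genes with these orders was not computed, so the counts cannot be read as particular to the 10. After MBD6 knockdown in WT 9 of the 10 genes were called lower and 0 higher (median log2 change -0.45), where 24.7% of 26023 genes were called lower and 17.7% higher. In TET2 KO against WT under shControl 8 were called lower and 0 higher (median -0.29), where 22.3% of genes were called lower and 23.5% higher. In KO the libraries labelled shMBD6 were above those labelled shControl for 5 genes and below for 1 (median 0.13; with total gene counts, above for 8 and below for 0), where 15.7% of genes were called higher and 20.6% lower. KO against WT under shMBD6 gave 6 genes higher and 0 lower (median 0.26), where 30.1% were called higher and 28.5% lower. The knockdowns in WT and in KO share no library, nor do the comparisons of KO with WT under each shRNA, but every other pair of these comparisons shares a group. With the shRNA labels of the KO libraries exchanged, KO against WT gave 7 genes lower and 1 higher under shControl and 7 higher and 0 lower under shMBD6. Of all 26023 genes these exchanged fits called 5237 lower and 4888 higher under shControl, and 7180 higher and 4737 lower under shMBD6. The signs of the KO knockdown turn by construction. The split over all genes moved with scaling: with total gene counts it was 4526 higher and 8283 lower (6127 and 5794 with TMM) for KO against WT under shControl, 5659 and 4938 (4615 and 6431) for the WT knockdown, 6048 and 4047 (4094 and 5370) for the KO libraries, and 5778 and 8828 (7838 and 7422) for KO against WT under shMBD6.

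Genes as strongly expressed as the 10 also moved, and not equally in each comparison. Of 6437 genes in that range, 59.2% were called lower and 16.1% higher after MBD6 knockdown in WT (median -0.21, against -0.45 for the 10). For KO against WT under shControl the range was balanced, with 36.1% lower and 36.3% higher and a median of -0.01, against -0.29 for the 10. Between the labelled KO groups, 36.5% of them were called higher with shMBD6 and 27.9% lower (median 0.05). Under shMBD6, 66.0% were higher and 13.8% lower in KO than in WT (median 0.28), against 0.26 for the 10. K562 markers summed to 1053 to 1081 CPM in WT shControl, 653 to 671 in WT shMBD6, 534 to 545 in KO shControl and 757 to 773 in KO shMBD6, with TFRC highest, and the part of this shift in the results was not tested.

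The cyclins parted in the KO libraries. CCNB1 (ENSG00000134057.14, chr5:69167135-69178245, plus strand, hg38) was at 52.9, 51.8 and 50.4 CPM in the WT shControl libraries, 34.3, 36.0 and 33.1 in WT shMBD6, 41.9, 41.6 and 36.8 in KO shControl and 37.6, 41.9 and 43.7 in KO shMBD6. The WT shControl libraries were the highest and WT shMBD6 the lowest, and the KO groups overlapped each other between them. The log2 change was -0.58 (SE 0.06, edgeR adjusted p = 3.33e-09) for MBD6 knockdown in WT and -0.37 (SE 0.06, adjusted p = 1.33e-05) for KO against WT under shControl. CCNB2 (ENSG00000157456.7, chr15:59105126-59125045, plus strand), which shares its strand with an overlapping long non-coding RNA and whose shared reads are therefore uncertain, was at 27.3, 26.9 and 27.3 CPM in the WT shControl libraries, 17.1, 19.2 and 20.7 in WT shMBD6, 28.0, 27.7 and 27.9 in KO shControl and 37.4, 33.0 and 38.1 in KO shMBD6. Here the KO shControl libraries lay just above WT shControl, and the KO shMBD6 libraries were the highest of all. The WT knockdown changed it by -0.52 (SE 0.08, adjusted p = 9.03e-07) and the KO comparison of the labelled libraries by 0.38 (SE 0.07, adjusted p = 0.000119). KO over WT under shMBD6 was 0.93 (SE 0.08, adjusted p = 2.67e-12), the 1 call past 1.5-fold between a pair of groups among the 10, next to 0.25 for CCNB1. It was 0.55, and not past 1.5-fold, with the KO shRNA labels exchanged. Under shControl the KO against WT change of CCNB2 was 0.04 (adjusted p = 0.724).

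CDK1 (ENSG00000170312.15, chr10:60778331-60794852, plus strand) was at 100.2, 105 and 102 CPM in the WT shControl libraries, 72.7, 79.9 and 74.8 in WT shMBD6, 79.0, 81.5 and 85.4 in KO shControl and 88.4, 89.2 and 96.8 in KO shMBD6. Its order was that of CCNB1, with WT shControl on top and WT shMBD6 at the bottom, and among neighbouring groups only KO shControl and WT shMBD6 overlapped. The log2 changes were -0.44 for the WT knockdown (SE 0.05, edgeR adjusted p = 1.17e-09), -0.32 for KO against WT under shControl (SE 0.05, adjusted p = 3.37e-07) and 0.16 for the labelled knockdown in KO (SE 0.05, adjusted p = 0.00598). The last was lost without KO shControl replicate 1 (0.13) or KO shMBD6 replicate 3 (0.11).

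PLK1 (ENSG00000166851.14, chr16:23677656-23690367, plus strand) was at 58.0, 53.4 and 54.6 CPM in the WT shControl libraries, 41.6, 40.6 and 41.1 in WT shMBD6, 44.0, 38.7 and 40.4 in KO shControl and 42.9, 46.7 and 44.6 in KO shMBD6. All 3 other groups lay below WT shControl, with a log2 change of -0.43 in WT shMBD6 (SE 0.06, edgeR adjusted p = 2.36e-07) and -0.43 in KO shControl (SE 0.06, adjusted p = 1.85e-07). The labelled knockdown in KO gave 0.12 (adjusted p = 0.106), with overlapping libraries, and was called with total gene counts (0.25), no filter (0.17), only the groups compared (0.17) or without KO shControl replicate 1 (0.17). KO over WT under shMBD6 gave 0.12 (adjusted p = 0.0756) and was called without KO shMBD6 replicate 1 (0.16). AURKA (ENSG00000087586.17, chr20:56369389-56392337, minus strand) was at 60.8, 61.1 and 62.4 CPM in the WT shControl libraries, 46.6, 50.3 and 45.8 in WT shMBD6, 48.5, 50.4 and 49.9 in KO shControl and 48.2, 45.5 and 46.2 in KO shMBD6. It too was highest in WT shControl, and the 3 other groups lay close together, so that the WT knockdown (-0.37, SE 0.05, adjusted p = 4.73e-07) and KO under shControl (-0.31, SE 0.05, adjusted p = 8.27e-06) were called. In KO it did not rise with the label (-0.09, adjusted p = 0.201), and under shMBD6 KO and WT libraries overlapped (-0.03, adjusted p = 0.674).

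AURKB (ENSG00000178999.12, chr17:8204733-8210600, minus strand) was at 29.9, 26.6 and 30.0 CPM in the WT shControl libraries, 21.6, 21.1 and 20.0 in WT shMBD6, 22.7, 25.9 and 23.7 in KO shControl and 33.0, 31.9 and 27.5 in KO shMBD6. Unlike AURKA, it reached in KO shMBD6 the range it had in WT shControl. The WT knockdown gave -0.47 (SE 0.08, edgeR adjusted p = 1.09e-05), KO under shControl -0.26 (SE 0.08, adjusted p = 0.00738) and the labelled knockdown in KO 0.35 (SE 0.08, adjusted p = 0.000527). KO over WT under shMBD6 was 0.56 (SE 0.08, adjusted p = 3.80e-07). The difference between AURKA and AURKB was not itself tested.

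BUB1 (ENSG00000169679.14, chr2:110637528-110678063, minus strand) was at 127, 133 and 132 CPM in the WT shControl libraries, 113, 115 and 106 in WT shMBD6, 135, 133 and 136 in KO shControl and 105, 119 and 125 in KO shMBD6. It was the 1 gene called lower in the shMBD6 libraries of both genotypes, without overlap in either, and its WT and KO libraries overlapped under both shRNAs. The change was -0.23 in WT (SE 0.05, edgeR adjusted p = 7.11e-05) and -0.21 in KO (SE 0.05, adjusted p = 0.000375), although under total gene counts the KO value was -0.08 and no longer called. KO against WT gave 0.04 under shControl (adjusted p = 0.507) and 0.06 under shMBD6 (adjusted p = 0.229), and these turned to -0.14 under total gene counts and -0.15 under scaling on strongly expressed genes. The second was called higher, at 0.14, without KO shMBD6 replicate 1, and the WT knockdown was -0.07 and not called with scaling on strongly expressed genes. CDC20 (ENSG00000117399.13, chr1:43358981-43363203, plus strand) was the least abundant of the 10 in CPM, at 22.2, 19.5 and 18.0 CPM in the WT shControl libraries, 19.9, 16.3 and 16.2 in WT shMBD6, 15.8, 14.0 and 15.0 in KO shControl and 16.2, 17.7 and 15.2 in KO shMBD6. Its replicates spread widely, and the single call was for KO against WT under shControl (-0.41, SE 0.10, adjusted p = 0.000851). The WT knockdown gave -0.18 (SE 0.10, adjusted p = 0.141) with overlapping libraries, and was called at -0.29 without WT shMBD6 replicate 1.

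TOP2A (ENSG00000131747.14, chr17:40388525-40417896, minus strand), within which a Y RNA gene is annotated on the same strand, was at 198, 208 and 198 CPM in the WT shControl libraries, 143, 146 and 139 in WT shMBD6, 174, 172 and 171 in KO shControl and 191, 189.8 and 197 in KO shMBD6. MKI67 (ENSG00000148773.13, chr10:128096659-128126423, minus strand) was at 200.3, 207 and 205 CPM in the WT shControl libraries, 142, 144 and 147 in WT shMBD6, 164, 170.1 and 173 in KO shControl and 179, 182 and 182 in KO shMBD6. The 4 groups had the same order in both genes, WT shControl, KO shMBD6, KO shControl and WT shMBD6 from high to low, and no libraries of different groups overlapped. MBD6 knockdown in WT changed TOP2A by -0.49 (SE 0.03, edgeR adjusted p = 2.30e-14) and MKI67 by -0.50 (SE 0.03, adjusted p = 1.09e-14). KO under shControl changed them by -0.23 and -0.27 (adjusted p = 4.28e-07 and 7.70e-09). In KO the libraries labelled shMBD6 were higher by 0.16 (adjusted p = 0.000146) and 0.10 (adjusted p = 0.0147), and the second of these was lost without KO shControl replicate 1 (0.08) or KO shMBD6 replicate 2 (0.09).

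**Figure D3:**
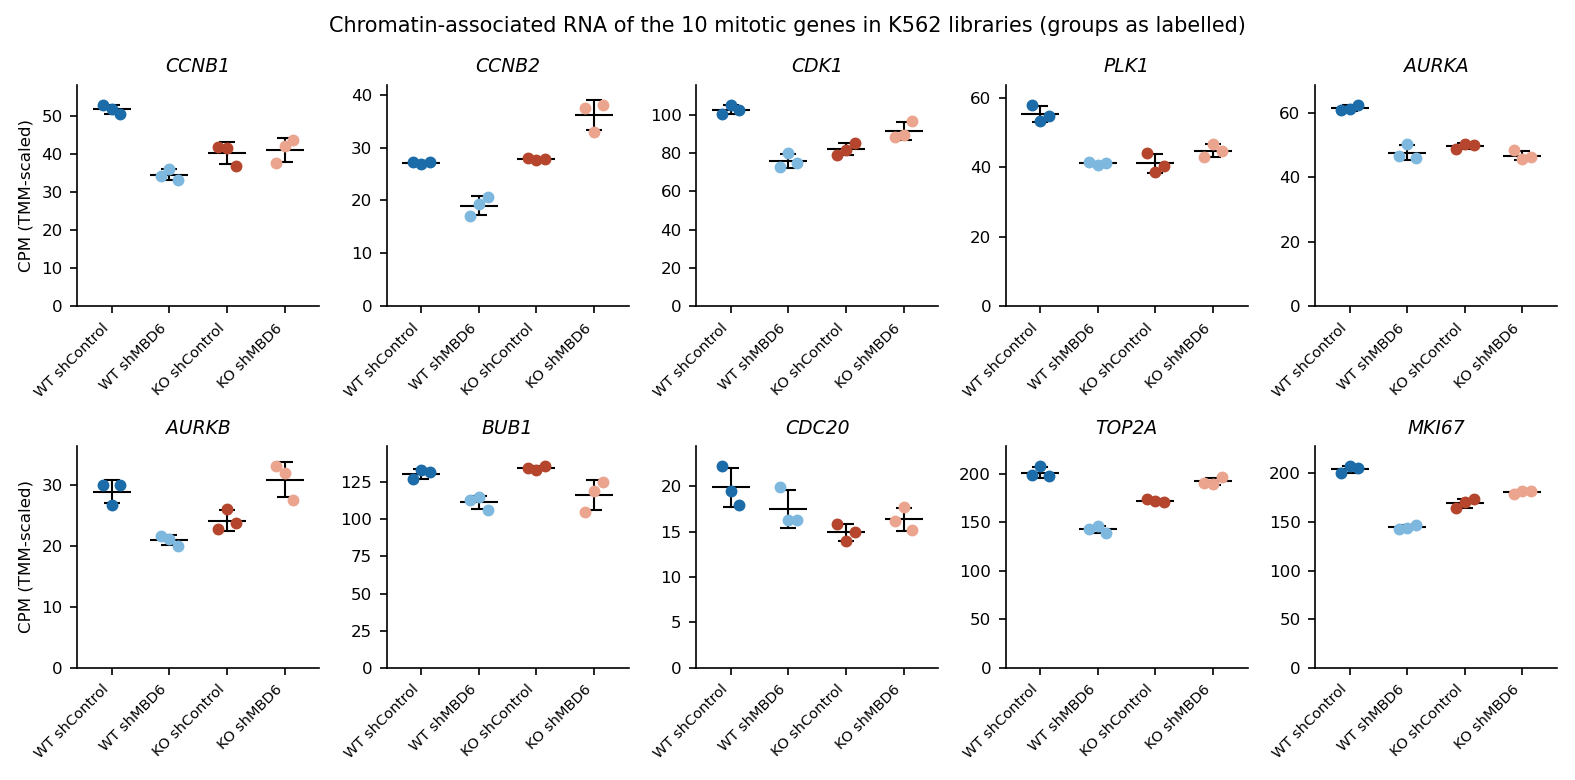
CPM of each of the 10 genes in the 12 K562 libraries, 1 panel a gene, with a linear axis from 0 (points: libraries; bar and whiskers: mean ± SD, n = 3). In 7 panels WT shControl has the highest mean, while CCNB2 and AURKB are highest in KO shMBD6 and BUB1 in KO shControl. The share of all genes highest in WT shControl was not computed.

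The knockdown changes in KO and WT were then compared in 1 model. The difference of the log2 changes (KO minus WT) was above 0 and called for 8 of the 10 genes, with 0 called below 0 and a median of 0.60, where 23.9% of all genes were called above 0 and 25.5% below. In the expression range of the 10, 54.3% of genes were called above 0 and 24.1% below (median 0.25). With the labels as given, CCNB2 had a difference of 0.89 (SE 0.11, edgeR adjusted p = 1.30e-08) and AURKB one of 0.82 (SE 0.11, adjusted p = 1.99e-07). TOP2A, CCNB1, MKI67, CDK1 and PLK1 were between 0.55 and 0.65. AURKA was at 0.28 (SE 0.07, adjusted p = 0.002), and this call was lost with scaling on strongly expressed genes (0.12). CDC20 (0.31, SE 0.14, adjusted p = 0.063) and BUB1 (0.02, SE 0.06, adjusted p = 0.782) were not called, though CDC20 was called without WT shControl replicate 3 (0.39), WT shMBD6 replicate 1 (0.42) or KO shMBD6 replicate 3 (0.37). Because the shRNA labels in KO go against the level of MBD6, the fit was also made with these labels exchanged. The difference was then above 0 and called for 7 genes, with 0 called below 0 (median 0.32). Over all 26023 genes this exchanged fit called 4067 above 0 and 1320 below (median 0.09), so that genes at large leaned the same way. The sizes and their order were others: CCNB1 stood at 0.55, AURKA at 0.46 and BUB1 at 0.44, while CCNB2 (0.14), AURKB (0.11) and CDC20 (0.05) were not called. The exchange turns only the sign of the KO change and keeps the WT change. For each of the 10 genes the WT change was below 0 and larger in size than the KO change. The difference thus had to stay above 0 under either labelling, and the exchange is no test of its direction. The place of each gene moved with the labels. The count of 6 higher and 0 lower for KO against WT under shMBD6 depended on scaling. Under total gene counts it was 5 higher and 2 lower, where all genes gave 5778 higher and 8828 lower. With scaling on strongly expressed genes it was 4 higher and 3 lower (AURKA, BUB1 and CDC20). All genes then gave 4896 higher and 9606 lower, so that the whole set of genes had moved down.

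**Figure D4:**
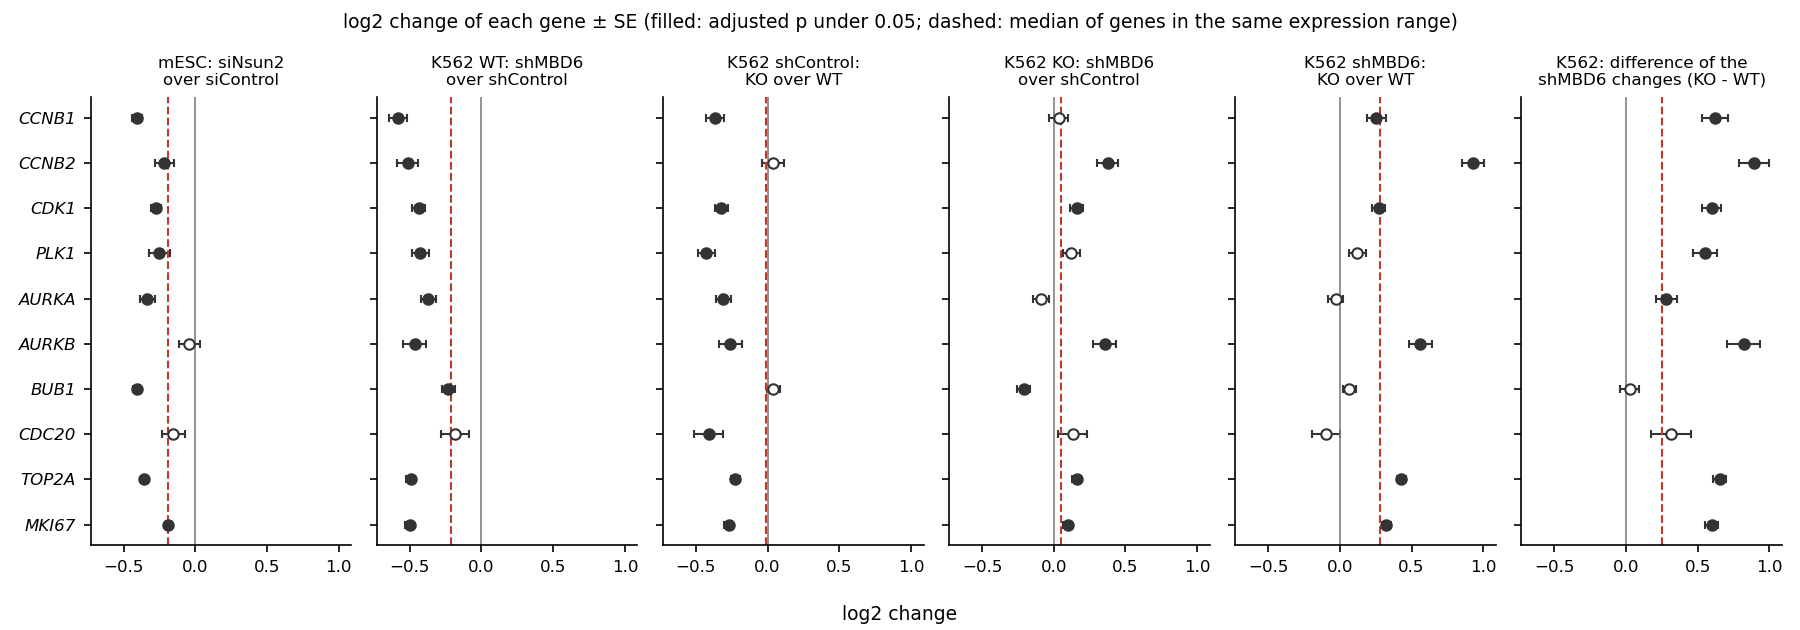
log2 change ± SE of each of the 10 genes (rows) in 6 comparisons (panels), with a shared linear axis. Filled points passed an adjusted p under 0.05, the grey line marks 0 and the dashed line the median of genes in the same expression range. In the shControl panel of KO over WT the dashed line is near 0 (-0.01) and 8 filled points lie to its left, whereas in the mESC panel it is at -0.19, amid the points.

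The wider machinery was described by lists of other genes, given as counts and medians beside the shares over all genes above. The lists leave out the 10 genes, and the genes named are those with the largest called changes at a mean log2 CPM of 3 or more, so that some weaker genes on a list moved further. All counts and values in this paragraph are for siNsun2 against siControl in mESC. Of 19 other genes of the mitotic entry switch 14 were called lower and 2 higher. Nek6, a spindle kinase, was at -0.40, cyclin A2 (Ccna2) at -0.31 and Gtse1, a microtubule-binding protein of G2, at 0.15. In 21 spindle checkpoint and kinetochore genes 18 were lower, led by the kinetochore scaffold Knl1 (-0.42) and Cenpf (-0.40). Partners of the aurora kinases and midzone genes gave 15 lower of 17, led by the cytokinesis gene Ect2 (-0.46) and Cep192 (-0.38). The anaphase-promoting complex and its targets gave 15 lower of 20, with its subunit Cdc16 at -0.41 and securin (Pttg1) at -0.34. Condensin and chromosome structure genes gave 13 lower of 13, with Smc2 at -0.34 and Ncapg at -0.30. Regulators of G2 and M genes gave 12 lower and 1 higher of 15, with Foxm1 at -0.36, Lin52 at -0.33 and the pocket protein Rbl2 at 0.16. The replication licensing list gave 10 lower of 11, with Mcm4 at -0.44 and the sliding clamp Pcna at -0.42. Cell cycle brakes were split, with 4 higher (Trp53 0.25 and Ccng1 0.13 the most) and 5 lower of 14 (Cdkn1b -0.58 and Cdkn3 -0.37 the most). List medians lay between -0.29 and -0.19, close to the -0.19 of genes expressed like the 10.

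In K562 the same lists were set against the knockdown in each genotype. In WT the mitotic entry list gave 2 higher and 14 lower of 19 (median -0.28), and in the labelled KO libraries 8 higher and 2 lower (median 0.15). CKS1B, a CDK-binding protein, was at -0.60 and GTSE1 at -0.55 in WT, while in KO the phosphatase CDC25A, which activates CDKs, was at 0.44 and GTSE1 at 0.26. NEK6 stood out upward in WT (1.95) and was lower in KO (-0.27), as was NEK7 (-0.37). Checkpoint and kinetochore genes gave 3 higher and 12 lower of 21 in WT (median -0.21), with ZWINT at -1.13, MAD2L1 at -0.60, SGO2 at 0.19 and NSL1 at 0.17. In KO this list was balanced at 6 higher and 5 lower (median 0.01), with ZWINT (0.93) and ZW10 (0.68) up and SGO2 (-0.53) and NSL1 (-0.34) down. Aurora partners gave 0 higher and 11 lower of 17 in WT (median -0.28), led by borealin (CDCA8, -0.55) and KIF20A (-0.54). In KO they gave 5 higher and 5 lower (median -0.06), with KIF20A (0.38) and KIF2C (0.36) up and KIF11 (-0.32) and ANLN (-0.22) down.

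Anaphase-promoting complex genes gave 0 higher and 14 lower of 19 in WT (median -0.27), led by separase (ESPL1, -0.72) and securin (PTTG1, -0.59), and 7 higher and 2 lower in KO (median 0.06), with CDC23 at 0.51, ESPL1 at 0.46, CDC27 at -0.22 and ANAPC16 at -0.12. Condensin genes gave 0 higher and 12 lower of 14 in WT (median -0.34), led by NCAPG (-0.69) and NCAPG2 (-0.54). In KO they gave 6 higher and 1 lower, but with a median of -0.0007. NCAPG2 was at 0.42, NCAPH at 0.36 and TOP2B, the relative of TOP2A that is not tied to division, at -0.12. Regulators of G2 and M genes gave 1 higher and 12 lower of 14 in WT (median -0.26), and the NF-Y subunits that bind CCAAT were among them, with NFYB at -0.57, NFYC at -0.46 and NFYA at 0.26. In KO they gave 7 higher and 3 lower (median 0.10), with MYBL2 at 0.44, NFYB at 0.21, NFYA at -0.34 and E2F4 at -0.22.

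Replication licensing genes moved with the label in both genotypes, in opposite directions. In WT 11 of 12 were lower and 0 higher (median -0.54), led by the sliding clamp PCNA (-0.73) and the helicase subunit MCM3 (-0.71). In KO 10 were higher and 1 lower (median 0.46), with MCM2 at 0.76, PCNA at 0.73 and geminin (GMNN), which blocks re-licensing, at -0.16. The difference between the genotypes was called above 0 for 11 of them (median 0.99), but for 2 (median 0.01) with the KO shRNA labels exchanged. A CHR was found in the promoter of 1 of the 10 licensing genes in the RefSeq table, against 7 of 9 mitotic genes, and a CCAAT in 8. The share with a CHR was 83.3% in the condensin list, 71.4% in aurora partners, 56.2% in mitotic entry and 55.6% in the checkpoint list. It was 41.7% in the regulators, 31.6% in the anaphase-promoting complex and 9.09% in the brakes. A frequent CHR was thus not particular to the 10. Cell cycle brakes were split in both genotypes, with 2 higher and 6 lower of 14 in WT (CCNG2 0.55, CDKN1B -0.92, GADD45A -0.90) and 3 higher and 5 lower in KO (GADD45A 0.76, CDKN1B 0.58, CCNG2 -0.39, CCNG1 -0.26). For KO against WT under shControl the licensing list gave 0 higher and 8 lower (median -0.29), close to the median of the 10. The mitotic entry list gave 2 higher and 8 lower (median -0.13), the anaphase-promoting complex 3 higher and 8 lower (median -0.20) and condensin 3 higher and 8 lower (median -0.12), while the checkpoint list gave 6 higher and 7 lower (median -0.04), the aurora list 5 higher and 7 lower (median -0.11) and the regulators 4 higher and 5 lower (median -0.05). Under shMBD6 the same comparison gave 12 higher and 0 lower of 12 for licensing (median 0.68). It gave 12 higher and 2 lower of 21 for the checkpoint (median 0.18) and 9 higher and 2 lower of 17 for aurora partners (median 0.08). The anaphase-promoting complex gave 13 higher and 1 lower of 19 (median 0.36) and mitotic entry 12 higher and 1 lower of 19 (median 0.22). Condensin gave 11 higher and 1 lower of 14 (median 0.30) and the regulators 11 higher and 2 lower of 14 (median 0.35). Of genes expressed like the 10, 66.0% were called higher and 13.8% lower here (median 0.28). These list counts are thus to be read against a majority of like genes called higher too.

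**Figure D5:**
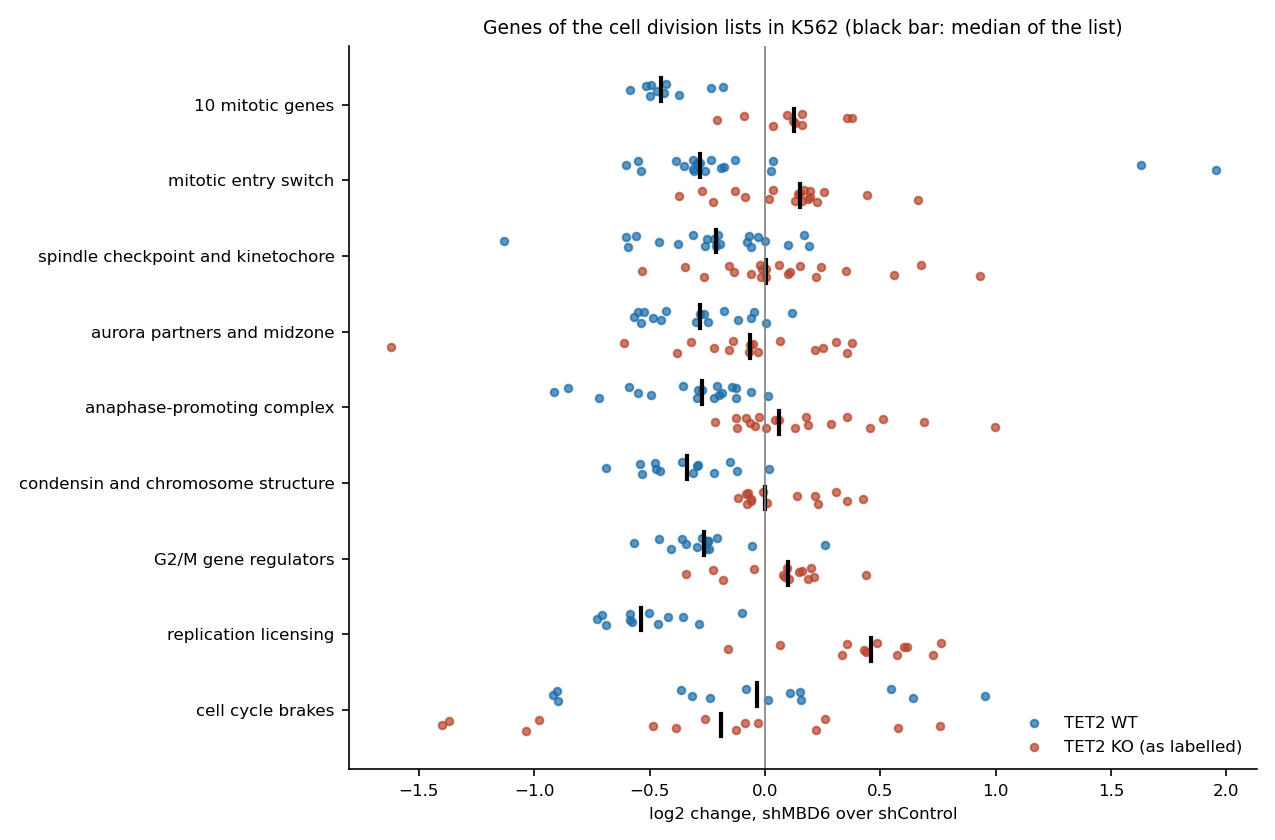
log2 change of shMBD6 over shControl for each gene tested (points) in 9 lists (rows), in WT (blue) and in the labelled KO libraries (red), on a linear axis with a black bar at the median of the list. The 10 mitotic genes have medians of -0.45 and 0.13, and the licensing list has medians of -0.54 and 0.46.

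CCNB2 lies on chromosome 15, which differed as a whole between the genotypes. There the median log2 change of KO over WT was 0.60 under shControl over the 458 genes with a mean log2 CPM from 1 up and 0.72 over the 44 of them within 5 Mb, and 0.79 and 0.73 under shMBD6. CCNB2 itself changed by 0.04 and 0.93. It was thus below its neighbours under shControl and above them under shMBD6. For the other 9 genes the median of the chromosome was between -0.08 and 0.09 under shControl. In the knockdown comparisons, where genotype is held fixed, the chromosome 15 median was -0.13 in WT and near 0 in KO. The part of this shift in the KO against WT values of CCNB2 was not tested. AURKB and TOP2A share chromosome 17, and CDK1 and MKI67 share chromosome 10.

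Over the 12 K562 libraries the 10 genes differed in how closely they moved together. The correlation of each with the mean of the standardised 10 was highest for MKI67 (Pearson r = 0.977), CCNB1 (0.956), CDK1 (0.951) and TOP2A (0.941), lower for PLK1 (0.879), AURKB (0.767) and AURKA (0.764), and lowest for CCNB2 (0.566), BUB1 (0.542) and CDC20 (0.445). Among pairs the values ran from 0.958 for TOP2A with MKI67 to -0.276 for CCNB2 with CDC20. These are descriptions over 12 libraries that fall into 4 groups and share genotype or label within each, and each gene is part of the mean it is set against. Outside the 10, the genes most like that mean included NOP56 (r = 0.988), ZEB2 (0.988), PEX14 (0.986) and ZNF76 (0.981). NOP56, for instance, stood at 73.1 ± 1.95 CPM in WT shControl, 42.3 ± 0.873 in WT shMBD6, 48.6 ± 0.829 in KO shControl and 58.0 ± 1.86 in KO shMBD6, the order seen in TOP2A and MKI67. None of these 4 is on any of the lists of cell division genes above.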

How the data were processed

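Chromatin-associated RNA was sequenced from stranded libraries. Per the labels and the study's methods, the authors trimmed reads with Trimmomatic 0.39, aligned them with HISAT2 2.2.1 to mm10 or hg38 and counted them per GENCODE gene. HTSeq 0.12.4 is named for genes and featureCounts for caRNA, and which made these tables is not clear from the sources. The deposited values are raw counts per gene, and the feature type and strand option behind them are not given in the sources used here. Genes on the opposite strand overlap Plk1, Cdc20 (Elovl1), Top2a and Mki67 in mouse and CCNB2 and PLK1 (ERN2 and a long non-coding RNA) in human. If strand was ignored, reads shared with these are uncertain too. A spike-in is described, but no spike-in counts were used, so all levels are relative to the other genes of a library. Summary lines of the counter (reads in no counted feature, with shares given above, ambiguous or multiply aligned) entered neither totals nor tests. Replicates are biological per the study's methods.

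The main test was the edgeR 4.0.16 quasi-likelihood test (R 4.3.3, limma 3.58.1) on those counts, with TMM factors, the default filter on low counts (minimum 10), 1 model for 6 mESC and 1 for 12 K562 libraries, and Benjamini-Hochberg adjustment over all genes tested. Calls were made below an adjusted p of 0.05, and the SE is the log2 change over the square root of F. The fit was tested on simulated counts. DESeq2 1.42.0, other scalings and filters, and each library left out were alternatives, and exchanged shRNA labels in KO were one added after seeing the data. Of the mouse and human identifiers, 99.93% and 99.12% matched GENCODE.

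The 10 genes and the lists were chosen with earlier results of these data known. In each list up to 2 called genes in each direction were named, those with the largest changes at a mean log2 CPM of 3 or more. Genes most alike were ranked by correlation with the mean of the 10 over K562 libraries, and 1 of the top 5 is not reported here.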

Additional observations from a re-analysis of the deposited data

Results flagged for a closer look

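The change with the shMBD6 label differed between the genotypes for 8 of the 10 genes, by the edgeR test of the difference itself (KO minus WT, log2, adjusted p from 6.46e-14 to 0.002). The difference was 0.89 for CCNB2, 0.82 for AURKB, 0.65 for TOP2A, 0.62 for CCNB1, 0.60 for MKI67, 0.60 for CDK1, 0.55 for PLK1 and 0.28 for AURKA. With the shRNA labels of the KO libraries exchanged, the values in the same order were 0.14, 0.11, 0.33, 0.55, 0.40, 0.28, 0.31 and 0.46, and those of CCNB2 and AURKB were not called. MBD6 itself had a difference of 0.75, since it was lower with the label in WT and not in KO, and the part of this in the values of the 10 genes was not tested.

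A single wild-type mESC library of another experiment of the series (Pspc1 WT) was used in no comparison. It held 91990658 counts in genes, and 10.7% of its read records were in no counted feature. With total gene counts as the scale, every one of the 10 genes was higher in it than in each siControl library. The share of all genes that were higher in it was not computed, so this cannot be read as particular to the 10. Its make-up differed too, with counts in 27807 genes compared with 36407 to 36464 in siControl libraries. Ccnb1 was at 106 CPM, Ccnb2 at 41.8, Cdk1 at 92.4, Plk1 at 29.1 and Aurka at 43.3. Aurkb was at 22.2 CPM, Bub1 at 199, Cdc20 at 27.8, Top2a at 824 and Mki67 at 804. The ratio to the siControl mean ran from 1.14 to 1.93. With 1 library there is no test.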

How the results depend on the processing

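The counts of called genes among the 10 were 8 (siNsun2), 8 (KO against WT under shControl), 9 (knockdown in WT), 6 (labelled knockdown in KO), 6 (KO against WT under shMBD6) and 8 (difference between genotypes). Requiring 1.5-fold in addition left 0, 0, 0, 0 and 1 of the first 5. For siNsun2, total gene counts left 5 and scaling on strongly expressed genes 3. Leaving out each library in turn gave 7 to 8, 8 to 8, 9 to 10, 5 to 6, 6 to 8 and 8 to 9. Directions turned for Mki67 in siNsun2 (0.020) and BUB1 in KO against WT under shMBD6 (-0.15) with scaling on strongly expressed genes, and for BUB1 under shControl (-0.14) with total gene counts. With the KO shRNA labels exchanged, chosen after seeing the data, BUB1 (-0.17) and AURKB (0.094) turned in KO against WT under shControl. The cause was not tested beyond this exchange. With the DESeq2 test the 6 counts were 9, 8, 9, 6, 6 and 8. Under shMBD6, CCNB1 was not called in KO against WT with DESeq2 (0.13), and AURKA was called lower (-0.15).

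With the replicate number as a block the counts were 8, 8, 9, 6, 6 and 9, CDC20 being the added call (0.32). Deviations of same-numbered libraries from their group means correlated at -0.0174 to 0.0254 (Pearson r over genes), so the numbers did not pair the samples. Depth did not limit these genes, the least abundant of which stood at over 10 CPM in every library.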
